A study of Mus musculus and Homo sapiens with 24 samples.

Results

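The replication-dependent histone genes were followed in HepG2 cells, a human hepatoma line, over 4 groups of 3 RNA-Seq libraries each (A, B and C). Control cells received neither agent, CoCl2 cells received 50 μM cobalt chloride, estrogen cells received 25 nM 17β-estradiol, and CoCl2+estrogen cells received both, each for 4 hours. All 4 groups are the same line. The labels describe overnight culture in medium with serum and a wash before treatment, whereas the study's methods for its HepG2 assays describe an overnight step without serum, so the serum state of these cells, which bears on entry into S phase, is not settled. Cobalt chloride stabilizes the hypoxia-inducible factor HIF1α and stood in for low oxygen, so the CoCl2 groups are chemically treated cells and not hypoxic ones. Members were the genes whose symbol has the form of a replication-dependent histone gene (H1-1 to H1-6, H2AC, H2BC, H3C and H4C with a number, and H4-16) and whose count was above 5 in at least 1 of the 12 libraries. The symbol pattern matched 68 genes, and 60 of them, out of 28278 genes in the table, were members, 7 for the linker histone H1, 15 for H2A, 16 for H2B, 11 for H3 and 11 for H4. Just inside the threshold were H3C1, with a highest count of 6, and H1-1, with a highest count of 7. Of the 8 genes left out, H3C8 reached a count of 3, H2AC1, H2BC1, H3C11 and H4C13 reached 1, and H4C6, H4C7 and H4C9 had none.

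Replication-dependent histone genes encode the bulk of the histones that package newly made DNA. They lie in clusters, have no introns, and are transcribed mainly in S phase under the coactivator NPAT, which is switched on by cyclin E with CDK2. Their mRNAs end in a stem-loop instead of a poly(A) tail. The stem-loop is bound by SLBP, which is needed for cutting, export and translation, and the mRNA is degraded quickly when DNA synthesis stops. Replacement histones, such as H3.3, are made from ordinary polyadenylated mRNAs throughout the cell cycle. The symbol pattern also takes in H1-10, a replacement linker histone, which is kept among the 60 members and whose weight is given where it matters, and H1-6, the testis-specific H1.

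Library totals ran from 13592629 to 21701479 counts, and the libraries were made from total RNA after ribosomal RNA was removed, so that mRNAs without a poly(A) tail were kept. Levels are given as CPM, a gene's reads relative to all reads of its library after TMM scaling. Levels of different genes are not compared with each other, because gene lengths were not used. A gene was called changed when edgeR's quasi-likelihood test gave a p of no more than 0.05 after Benjamini-Hochberg adjustment across every gene tested. The sources used here do not say whether libraries A, B and C came from separate cultures, so p-values measure the spread between these libraries only. In these bulk samples, fewer cells in S phase and less histone mRNA per cell cannot be told apart. All 10 hepatocyte markers examined were above 1 CPM in control cells. Among 15 markers of stromal, endothelial and immune cells, 6 had no count in any library, CD3E, PTPRC and DCN among them, and 3 were above 1 CPM in control cells (CD68, COL1A1 and PDGFRB). The summed level of these 15 markers ran from 57.4 to 60.9 CPM in control, 50.5 to 64.1 in CoCl2, 26.4 to 27.6 in estrogen and 23.1 to 29.9 in CoCl2+estrogen libraries. With estradiol, 2 of the 7 tested were called higher and 3 lower, beside 34.7% and 34.2% of all tested genes. Mean levels in control and estrogen cells were 20.9 and 1.15 CPM for COL1A1, 29.2 and 14.9 for CD68, and 6.65 and 7.52 for PDGFRB.

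Summed over the 60 members, histone mRNA with CoCl2 alone overlapped control, was lower with estradiol and was lowest with both. The sum was 4154, 4108 and 5746 CPM in control libraries A, B and C, and 4850, 5347 and 4347 CPM in CoCl2 libraries. In estrogen libraries it was 2759, 2757 and 2813 CPM, and in CoCl2+estrogen libraries 1927, 1591 and 1472 CPM. The control and CoCl2 libraries overlapped, while every estrogen library lay below them and every CoCl2+estrogen library lay below the estrogen libraries. Control C stood above the other control libraries. The means were 4669 ± 933 CPM in control, 4848 ± 500 in CoCl2, 2776 ± 31.8 in estrogen and 1664 ± 236 in CoCl2+estrogen cells (SD, n = 3 each), so that CoCl2, estrogen and CoCl2+estrogen cells stood at 104%, 59.4% and 35.6% of the control mean. Without H1-10 the last 2 shares were 55.5% and 32.3%. All these shares rest on a control mean that control C raised. Histone genes took between 0.430% and 0.610% of all counts in control libraries and between 0.142% and 0.185% in CoCl2+estrogen libraries.

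**Figure D1:**
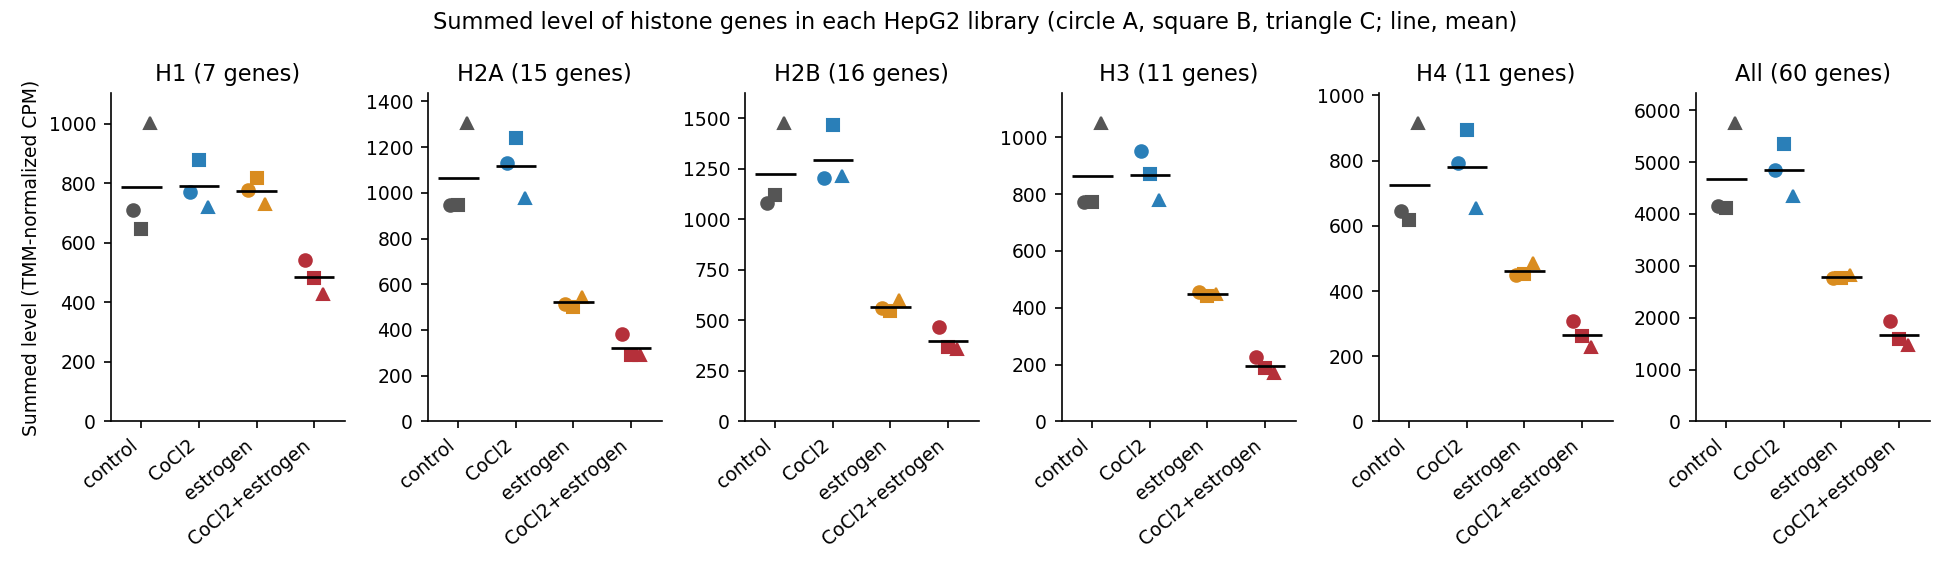
Summed level of the histone genes of each family, and of all 60, in TMM-normalized CPM (y axes, from 0) in each library of the 4 groups (x axes). Points are libraries (circle A, square B, triangle C) and lines are group means. In the all-gene panel the 3 estrogen libraries lie between 2757 and 2813 CPM and the 3 CoCl2+estrogen libraries between 1472 and 1927 CPM, below all control and CoCl2 libraries.

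The families did not fall alike. H2A, H2B, H3 and H4 genes package DNA as the nucleosome core, and their summed levels in estrogen cells were 48.8%, 46.4%, 51.8% and 63.7% of the control mean. With both agents they were 30.1%, 32.4%, 22.5% and 36.6%. The H3 genes were thus near the other core families with estradiol alone and at the smallest share of control with both agents. Linker histone H1 genes summed to 98.7% of control in estrogen cells and 61.7% in CoCl2+estrogen cells, and without H1-10 to 76.7% and 43.0%.

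CoCl2 alone called no histone gene. Of 59 members tested against control, 0 were called higher and 0 lower by edgeR, against a background of 1.31% of 15872 tested genes called higher and 0.132% called lower. At an unadjusted p under 0.05 there was 1 member, and DESeq2 also called 1. The median log2 change of the members was 0.02, the median of all tested genes was near 0 as well (-0.0033), and 28 of the 59 members had a negative log2 change. The member with the unadjusted p was H1-3, a somatic linker histone, at 3.61, 4.52 and 4.09 CPM in control and 2.31, 1.17 and 2.11 CPM in CoCl2 libraries (log2 fold change -1.09, adjusted p = 0.0643 by edgeR), and H1-3 was the gene that DESeq2 called. It is named because of this value, as are other genes outside the naming rule. Without control C, the library with the highest sum, 16 members had an unadjusted p under 0.05, the median log2 change was 0.22, and 1 member, H2BC15, was called higher.

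With estradiol alone, 51 of 60 members were called lower and 4 higher than in control by edgeR, and 5 were not called. DESeq2 called 47 members in either direction, each of them also called by edgeR. Among all 16281 tested genes 34.2% were called lower and 34.7% higher, so the members' share of lower calls stood far above that background and their share of higher calls below it. The median log2 change of the members was -1.14, against -0.0040 over all tested genes, and 34 members fell by more than 1 on the log2 scale. By family, 14 of 15 H2A, 15 of 16 H2B, 9 of 11 H3, 9 of 11 H4 and 4 of 7 H1 genes were called lower. The median change was -1.61 for H2A, -1.48 for H2B, -1.02 for H3, -0.84 for H4 and -0.42 for H1. The H1 median takes in H1-10 and H1-6, which rose by 1.79 and 4.63. The other H1 genes stood at -2.89 (H1-5), -2.73 (H1-1), -1.13 (H1-3), -0.42 (H1-4) and -0.14 (H1-2). The place of H1 among the families thus depends on these genes. These counts include members that exceeded 5 counts on 1 side only, H1-6 with estradiol, and H1-1, H2BC6, H3C1 and H3C12 without it. Of the 55 members above 5 counts in both groups, 49 were called lower and 3 higher, against 35.9% and 34.8% of 14651 such genes, with a median of -1.13.

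**Figure D2:**
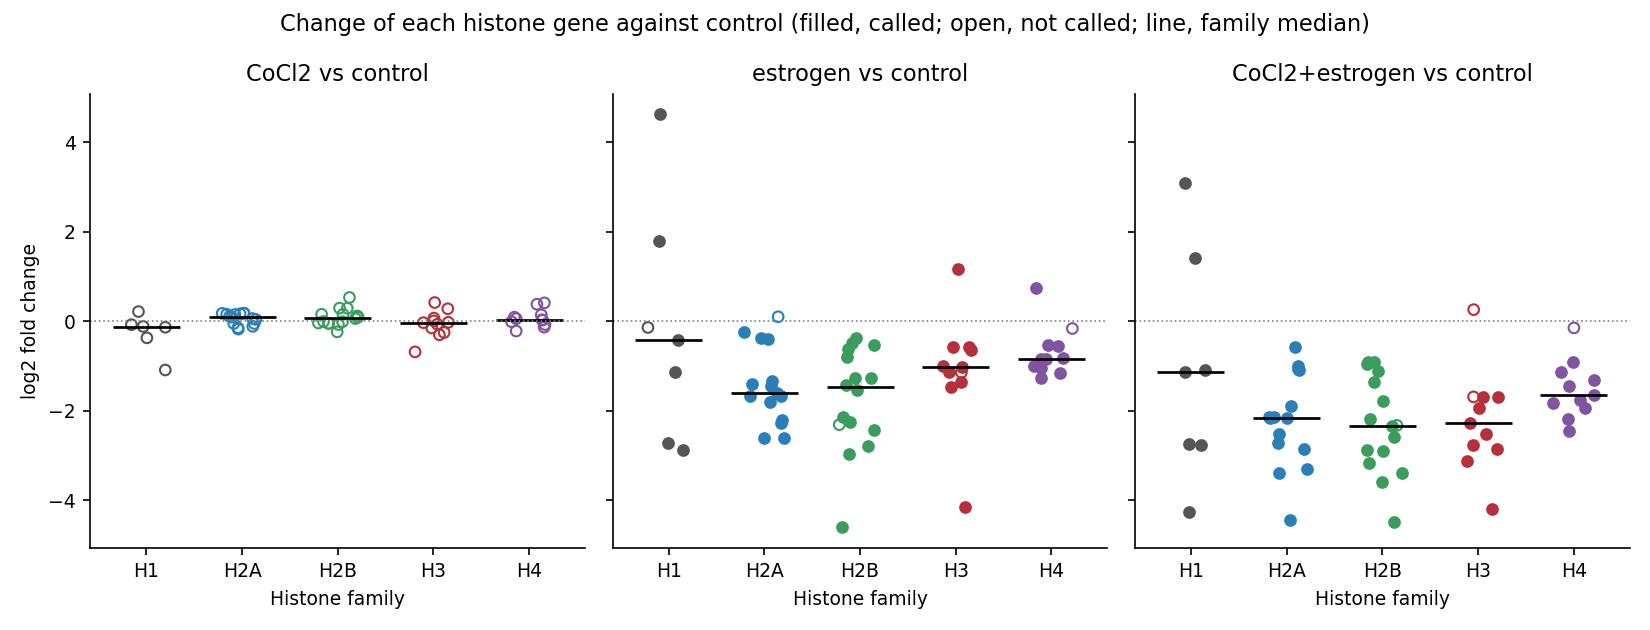
log2 fold change of each histone gene (y axis) by family (x axis) in CoCl2, estrogen and CoCl2+estrogen cells, each against control. Filled points were called changed, open points were not, and lines are family medians of -1.61 (H2A), -1.48 (H2B), -1.02 (H3), -0.84 (H4) and -0.42 (H1) in the middle panel. The topmost H1 point is H1-6, which had 2 counts over the control libraries.

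Among the linker histones, the somatic H1-5 fell deeply. Its level was 65.4, 67.4 and 88.6 CPM in control, 66.3, 77.7 and 58.7 in CoCl2, 10.0, 8.55 and 11.3 in estrogen and 4.59, 3.29 and 3.92 in CoCl2+estrogen libraries. The estrogen libraries lay below all control and CoCl2 libraries, and the CoCl2+estrogen libraries lay below the estrogen libraries. The log2 fold change with estradiol was -2.89 (SE 0.13, adjusted p = 3.15e-11 by edgeR), a 7.39-fold lower level, and with both agents -4.26 (SE 0.15, adjusted p = 1.45e-11 by edgeR), a 19.2-fold lower level. H1-2, also a somatic H1, behaved otherwise. It stood at 346, 326 and 470 CPM in control, 348, 351 and 336 in estrogen and 213, 173 and 165 in CoCl2+estrogen libraries. Estrogen and control libraries overlapped (log2 fold change -0.14, 95% interval -0.36 to 0.08, adjusted p = 0.236 by edgeR), and the estimate was 0.040 without control C and -0.24, called lower, without control B. With both agents H1-2 fell by 1.08 (adjusted p = 2.59e-06 by edgeR). H1-4, another somatic H1, was at 230, 191 and 368 CPM in control, 198, 197 and 192 in estrogen and 152, 112 and 101 in CoCl2+estrogen libraries, with log2 changes of -0.42 (adjusted p = 0.0293 by edgeR) and -1.14 (adjusted p = 0.000121 by edgeR). Control and estrogen libraries of H1-4 overlapped, the estradiol value was -0.10 without control C, and its call was lost there and without any single estrogen library.

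Estradiol raised H1-10 instead. This replacement linker histone was at 66.2, 56.5 and 71.1 CPM in control, 62.0, 52.7 and 60.5 in CoCl2, 219, 261 and 188 in estrogen and 174, 193 and 157 in CoCl2+estrogen libraries. Every library with estradiol lay above every library without it. The log2 fold change was 1.79 with estradiol (SE 0.11, adjusted p = 1.07e-09 by edgeR) and 1.40 with both agents (SE 0.09, adjusted p = 6.98e-09 by edgeR). The testis H1 gene H1-6 exceeded 5 counts in estradiol-treated libraries alone and so was a member only where it was high. It had 0, 2 and 0 counts in control, 0, 1 and 0 in CoCl2, 9, 12 and 25 in estrogen and 7, 5 and 4 in CoCl2+estrogen libraries, and neither a fold nor its call is given weight, because control held 2 counts in all and without control A the call with both agents was lost.

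H2A genes, whose product pairs with H2B in the nucleosome, ranged from no call to some of the deepest falls. H2AC14 was at 108, 124 and 137 CPM in control, 128, 164 and 122 in CoCl2, 20.5, 17.4 and 21.9 in estrogen and 16.2, 8.24 and 11.7 in CoCl2+estrogen libraries. The log2 fold change was -2.62 with estradiol (SE 0.10, adjusted p = 7.17e-12 by edgeR) and -3.39 with both agents (SE 0.16, adjusted p = 3.04e-10 by edgeR), and no library with estradiol overlapped those without. H2AC6 was the one H2A gene not called with estradiol. Its level was 81.0, 88.2 and 112 CPM in control, 90.0, 99.8 and 111 in estrogen and 76.6, 57.4 and 58.7 in CoCl2+estrogen libraries. Control and estrogen libraries overlapped (log2 fold change 0.10, 95% interval -0.13 to 0.33, adjusted p = 0.43 by edgeR), and the sign of this value turned to -0.032 when library totals alone were used for scaling, while without control C it was 0.25 and called higher. With both agents H2AC6 fell by 0.58 (adjusted p = 0.000873 by edgeR). H2AC18 and H2AC19, near-identical copies that share reads, can be read only together. Their summed level was 213, 199 and 308 CPM in control, 189, 183 and 176 in estrogen and 134, 111 and 103 in CoCl2+estrogen libraries, with log2 changes of -0.39 with estradiol and -1.09 with both (adjusted p = 0.00921 and 8.04e-06 by edgeR). Without control C the estradiol value was -0.17, still called.

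H2B genes held the deepest fall with estradiol. H2BC14, named for that value, went from 47.6, 44.7 and 74.0 CPM in control and 49.2, 91.2 and 61.5 in CoCl2 to 2.00, 2.28 and 2.56 in estrogen and 2.93, 1.83 and 2.82 in CoCl2+estrogen libraries. Its estrogen and CoCl2+estrogen libraries overlapped, unlike those of most members. The log2 fold change was -4.60 with estradiol (SE 0.21, adjusted p = 4.88e-11 by edgeR), 24.3-fold lower, and -4.49 with both (SE 0.23, adjusted p = 4.28e-10 by edgeR). H2BC7 and H2BC13 fell by 2.26 and 2.43 with estradiol (adjusted p = 1.07e-11 and 1.78e-10 by edgeR). H2BC17 fell with estradiol and again with both, from 155, 156 and 185 CPM in control to 66.1, 57.9 and 59.6 in estrogen and 31.2, 26.6 and 26.8 in CoCl2+estrogen libraries. These groups did not overlap (log2 fold change -1.43 with estradiol and -2.58 with both, adjusted p = 6.44e-10 and 1.62e-11 by edgeR). H2BC4 and H2BC5 changed less. H2BC4 went from 213, 235 and 279 CPM in control to 134, 132 and 154 in estrogen and 138, 102 and 105 in CoCl2+estrogen libraries, and the last 2 groups overlapped. Its log2 changes against control were -0.79 and -1.11 (adjusted p = 1.43e-06 and 7.93e-07 by edgeR), and those of H2BC5 were -0.38 and -0.92 (adjusted p = 0.0104 and 4.58e-05 by edgeR). For H2BC5 the estradiol value was -0.17 without control C, still called.

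Of the 11 H3 genes, 9 were lower with estradiol and all 9 tested between CoCl2+estrogen and estrogen cells were lower with both agents. H3C2 was at 191, 180 and 268 CPM in control, 253, 184 and 184 in CoCl2, 87.6, 86.2 and 75.6 in estrogen and 44.6, 37.6 and 30.5 in CoCl2+estrogen libraries. H3C4 was at 155, 166 and 175 CPM in control, 167, 176 and 152 in CoCl2, between 73.0 and 77.2 in estrogen and 40.2, 34.2 and 31.2 in CoCl2+estrogen libraries. In both genes the estrogen libraries lay wholly below control and the CoCl2+estrogen libraries wholly below estrogen. H3C4 had log2 changes of -1.13 with estradiol (SE 0.07, adjusted p = 8.86e-10 by edgeR) and -2.27 with both (SE 0.09, adjusted p = 4e-11 by edgeR), and H3C2 had -1.35 and -2.53. H3C3 kept more of its level with estradiol, at 139, 153 and 199 CPM in control, 110, 91.6 and 125 in estrogen and 56.2, 37.2 and 36.9 in CoCl2+estrogen libraries (log2 changes -0.59 and -1.95, adjusted p = 0.00055 and 5.25e-08 by edgeR).

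H3C6 and H4C3 were the core histone genes called higher with estradiol. H3C6 was at 7.06, 7.47 and 8.46 CPM in control, 8.47, 7.63 and 7.83 in CoCl2, 18.6, 16.6 and 16.5 in estrogen and 10.6, 8.48 and 8.93 in CoCl2+estrogen libraries. The estrogen libraries lay above all others (log2 fold change 1.18, SE 0.12, adjusted p = 3.01e-07 by edgeR), while with both agents the value was 0.26 (adjusted p = 0.11). H4C3, one of the copies that encode the same H4 protein, was at 52.2, 44.4 and 76.8 CPM in control, 67.4, 53.8 and 49.6 in CoCl2, 90.7, 97.1 and 98.8 in estrogen and 55.6, 58.4 and 45.1 in CoCl2+estrogen libraries. Its rise with estradiol was 0.73 (SE 0.14, adjusted p = 0.000266 by edgeR), and with both agents it stood at -0.15 (adjusted p = 0.418), or 0.12 without control C.

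**Figure D3:**
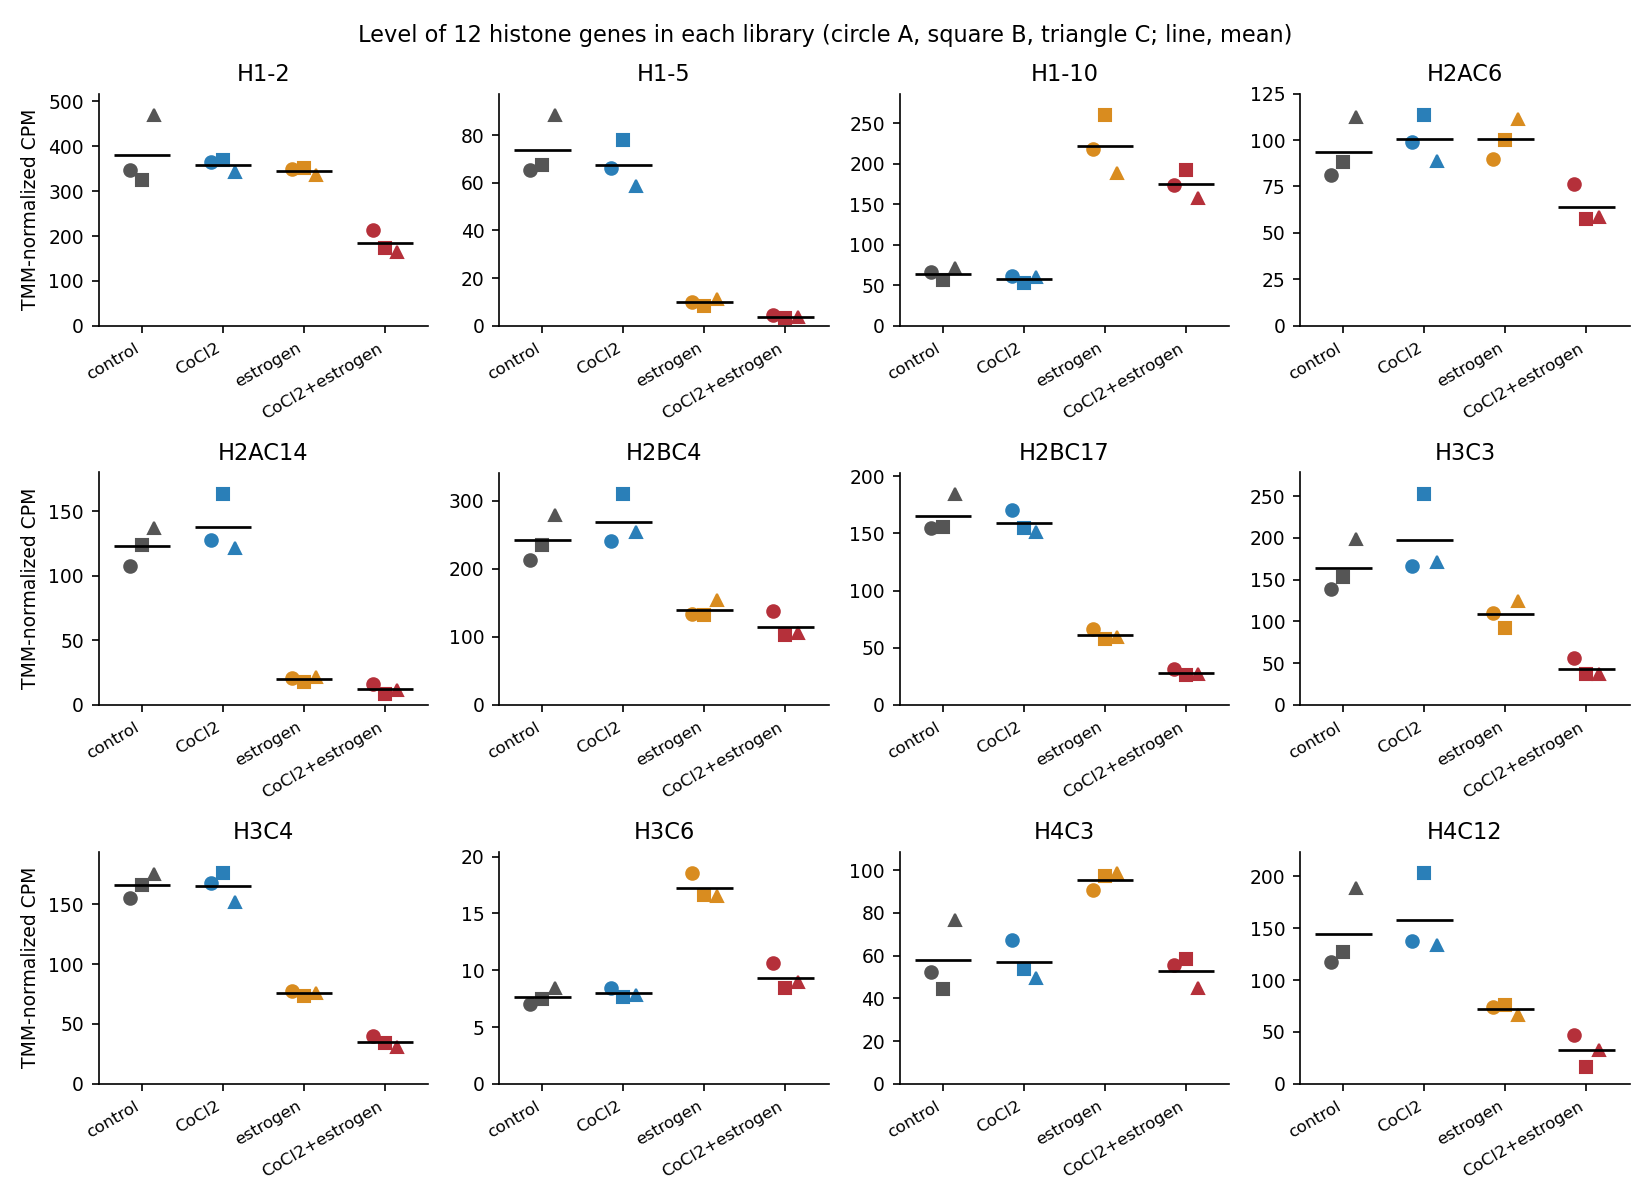
Level of 12 histone genes in TMM-normalized CPM (y axes, from 0) in each library of the 4 groups (x axes), with points for libraries (circle A, square B, triangle C) and lines for group means. H1-5, H2AC14, H2BC17 and H3C4 fall with estradiol, H1-10, H3C6 and H4C3 rise, and H1-2 and H2AC6 overlap control until CoCl2 is added.

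The H4 genes had the smallest median fall of the core families with estradiol. H4C2 went from 97.2, 88.2 and 126 CPM in control to 49.7, 45.0 and 45.0 in estrogen and 21.5, 20.3 and 16.4 in CoCl2+estrogen libraries (log2 changes -1.15 and -2.45, adjusted p = 1.67e-07 and 8.97e-10 by edgeR). H4C5 was at 106, 96.8 and 156 CPM in control, 74.6, 73.8 and 98.3 in estrogen and 84.6, 52.8 and 58.6 in CoCl2+estrogen libraries. The estrogen libraries of H4C5 overlapped both the control and the CoCl2+estrogen libraries, and its log2 changes against control were -0.54 and -0.91 (adjusted p = 0.00454 and 0.00038 by edgeR). Without control C the estradiol value of H4C5 was -0.30, still called. H4-16 was not called with estradiol. It had a log2 change of -0.16 (adjusted p = 0.331) and fell by 1.14 with both agents. H4C11 and H4C12 share reads, and their split moved between libraries, from 32.0 and 16.5 CPM in CoCl2+estrogen B to 11.9 and 33.0 in CoCl2+estrogen C. Their sum was 190, 208 and 262 CPM in control, 102, 95.9 and 113 in estrogen and 63.3, 48.5 and 44.9 in CoCl2+estrogen libraries (log2 changes -1.09 and -2.11, adjusted p = 1.3e-07 and 3.43e-09 by edgeR).

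With both agents, 54 of 60 members were called lower and 2 higher than in control, where 33.2% and 32.3% of 16201 tested genes were called. The median log2 change was -2.14, against -0.0090 over all tested genes, and 48 members fell by more than 1. H1-10 and H1-6 were the genes called higher, and H3C6, H4C3, H2BC6 and H3C1 were not called. Of the 55 members above 5 counts in both groups, which leaves out H1-6, H1-1, H2BC6, H3C1 and H3C12, 52 were called lower and 1 higher, against 34.7% and 32.5% of 14718 such genes, with a median of -2.13. Against CoCl2 cells, a comparison that shares its CoCl2+estrogen libraries with the last one, 54 of 59 tested members were called lower and 2 higher, with backgrounds of 30.8% and 30.1% and a median of -2.17. Among the 55 members above 5 counts in both of these groups the calls were 52 and 1, against 32.1% and 30.4% of such genes. The group mean of 55 of the 60 members was lowest in CoCl2+estrogen cells. The highest group mean lay in control or CoCl2 cells for 56 members and in estrogen cells for the other 4.

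With estradiol present, histone genes were lower when CoCl2 was added. Between CoCl2+estrogen and estrogen cells, 45 of 56 tested members were called lower and 0 higher by edgeR, against 8.85% and 8.14% of 15925 tested genes, and DESeq2 called 41, all of them among those 45. At an unadjusted p under 0.05 there were 51 members. The median log2 change was -0.75, against 0.0098 over all tested genes. All 9 tested H3 genes were called, with a median of -1.14, beside 5 of 6 H1, 13 of 15 H2A, 8 of 11 H4 and 10 of 15 H2B genes, whose median was -0.54. H3C10 had the smallest adjusted p, going from 47.9, 49.0 and 42.1 CPM in estrogen to between 13.8 and 15.9 in CoCl2+estrogen libraries (log2 fold change -1.63, SE 0.09, adjusted p = 1.8e-09 by edgeR). H1-2, which estradiol alone did not call, fell by 0.90 in this comparison (SE 0.08, adjusted p = 1.93e-07 by edgeR), and H2AC6 by 0.63 (adjusted p = 0.000219 by edgeR). H3C6 and H4C3, higher with estradiol, fell by 0.88 and 0.84 (adjusted p = 5.71e-05 and 1.88e-06 by edgeR). H2BC14, at its lowest already with estradiol, had a log2 change of 0.16 (95% interval -0.38 to 0.69).

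**Figure D4:**
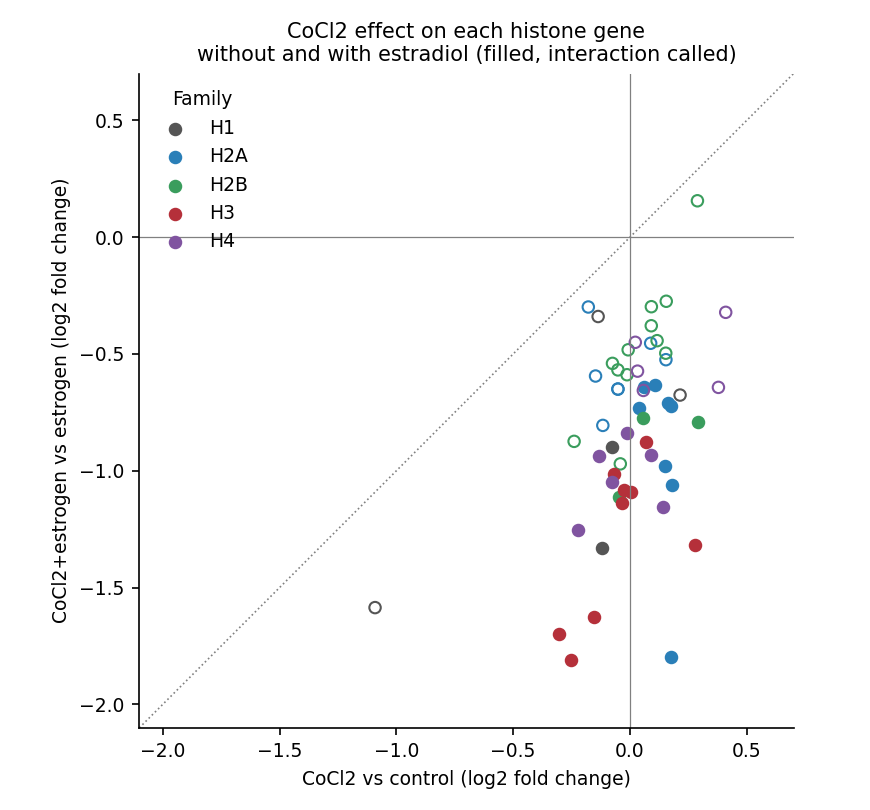
log2 fold change of each histone gene on CoCl2 without estradiol (x axis, CoCl2 against control) and with it (y axis, CoCl2+estrogen against estrogen), 2 comparisons that share no library. Colours are families, filled points had a called interaction, and the dotted line marks equal change. All 55 genes tested in both lie below that line, with medians of 0.02 without and -0.73 with estradiol.

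The difference between these CoCl2 effects was tested as the interaction of estradiol with CoCl2 over the 12 libraries. It was called for 28 of 60 members, all with a more negative CoCl2 effect when estradiol was present, against 3.7% of 16681 tested genes called in that direction and 2.1% in the other. No member was called in the other direction by edgeR, and 46 members had an unadjusted p under 0.05 in either direction. The median interaction of the members was -0.79, against 0.0123 over all tested genes. By family, it was called for 9 of 11 H3, 6 of 11 H4, 8 of 15 H2A, 2 of 7 H1 and 3 of 16 H2B genes. H3C4 (-1.10, adjusted p = 1.03e-05) and H2BC17 (-1.06, adjusted p = 2.13e-05) had the smallest adjusted p-values by edgeR's quasi-likelihood test. H3C3 (-1.59), H3C10 (-1.48), H4C12 (-1.29), H1-5 (-1.21) and H3C2 (-1.11) followed by size among the genes of the naming rule. H4C12 shares reads with H4C11, and its call was lost when any of several single libraries was left out. The interaction of their summed counts was -1.20. The count of 28 was 17 without CoCl2+estrogen C and 18 without estrogen C, and it was 41 without control C. H3C4 and H2BC17 held counts that were not whole in 12 and 11 libraries, so shared reads can enter their values.

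The members were set beside the genes that make, process and degrade histone mRNA, and beside the genes of DNA replication. Among all tested genes, 34.7% were called higher and 34.2% lower with estradiol, and 8.14% and 8.85% in CoCl2+estrogen against estrogen cells. Most replication genes were also lower with estradiol. Of 52 genes for DNA replication and S-phase entry, 44 were called lower and 3 higher than in control, with a median log2 change of -1.08. RRM2, a ribonucleotide reductase subunit, fell by 1.97, and MCM5, part of the replicative helicase, by 2.18 (adjusted p = 6.33e-13 and 2.04e-12 by edgeR). CDKN1A, an inhibitor of cyclin-dependent kinases that the list also holds, rose by 2.46 (adjusted p = 2.33e-13 by edgeR). Its level went from 109, 106 and 120 CPM in control to 632, 635 and 577 in estrogen libraries. With CoCl2 added to estradiol their values lay apart, a difference between lists that was not tested. Of the 52 replication genes, 9 were then called higher and 4 lower, with a median of 0.05, while the histone median was -0.75. RRM2 rose by 0.40, MCM5 by 0.37 and CCNE1, which encodes cyclin E1, by 0.59 (adjusted p = 0.000187, 0.00275 and 0.00505 by edgeR), although all 3 stayed below control. CCNE2, the other cyclin E gene of the list, was not below control. Its means were 5.77 CPM in control, 6.91 in estrogen and 7.64 in CoCl2+estrogen cells. CDKN1A fell by 0.81 and E2F8, a repressor of the E2F family, by 1.05 (adjusted p = 7.04e-08 and 8.67e-06 by edgeR). Both are among the 4 genes of the list called lower, so its counts mix inhibitors with other replication genes.

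**Figure D5:**
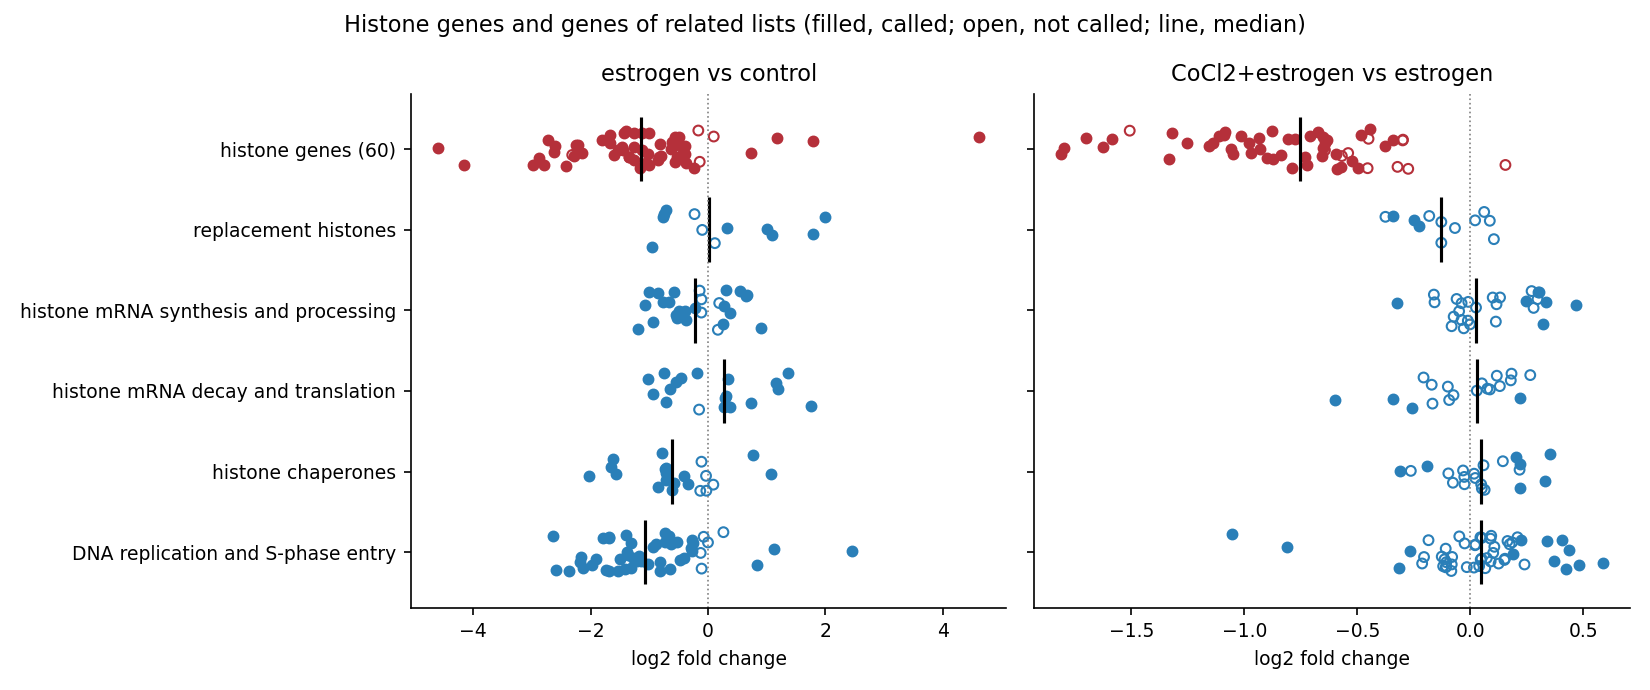
log2 fold change (x axes) of the histone genes and of the genes in 5 related lists (rows), for estrogen against control (left) and CoCl2+estrogen against estrogen (right). Filled points were called, open points were not, and lines are medians, which for the histone and replication genes are -1.14 and -1.08 on the left and -0.75 and 0.05 on the right. H1-10 stands in 2 rows, as a member and as a replacement histone.

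Genes for synthesis and processing of histone mRNA moved in both directions with estradiol, 8 higher and 14 lower of 27, with a median of -0.22. Among all tested genes 34.7% were called higher and 34.2% lower. SLBP was at 81.8, 90.4 and 78.0 CPM in control, 81.4, 90.2 and 89.5 in CoCl2, 47.4, 46.5 and 45.2 in estrogen and 57.7, 53.5 and 59.7 in CoCl2+estrogen libraries. It fell by 0.85 with estradiol (SE 0.07, adjusted p = 4.52e-08 by edgeR) and was 0.30 higher with both agents than with estradiol alone (adjusted p = 0.00566 by edgeR), a direction opposite to that of the histone mRNAs. NPAT rose by 0.25 with estradiol and by 0.33 with both (adjusted p = 0.0297 and 0.00256 by edgeR), although the call with estradiol was lost without control C (0.16), estrogen A (0.26) or estrogen C (0.15). CPSF3, the nuclease that cuts histone pre-mRNA, fell by 1.19 and SRRT, an RNA processing factor, by 1.07 with estradiol (adjusted p = 6.02e-10 and 3.64e-09 by edgeR). Of 19 genes for histone mRNA decay and translation, 10 were called higher and 8 lower with estradiol, beside 34.7% and 34.2% of all tested genes. Among those called lower, LSM4 fell by 1.03 (adjusted p = 1.41e-08 by edgeR). TUT7, an enzyme that adds uridines to RNA 3′ ends, rose by 1.76, and XRN1, the 5′ to 3′ exonuclease, by 1.36 (adjusted p = 2.46e-11 and 6.02e-10 by edgeR). Both were lower with both agents than with estradiol alone, by 0.60 and 0.26 (adjusted p = 1.41e-06 and 0.00639 by edgeR).

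Histone chaperones, which carry histones to and from DNA, fell for 14 and rose for 2 of 21 genes with estradiol, with a median of -0.62. Among all tested genes 34.2% were called lower and 34.7% higher. ASF1B fell by 2.03, SUPT16H, a subunit of FACT, by 1.62, and TONSL by 1.57 (adjusted p = 2.31e-10, 1.02e-11 and 3.5e-10 by edgeR). In CoCl2+estrogen against estrogen cells 5 chaperones were called higher and 2 lower, beside 8.14% and 8.85% of all tested genes. Replacement histones, H1-10 included, were called higher for 5 and lower for 4 of 12 tested genes with estradiol. These shares lay near those of all tested genes, 34.7% and 34.2%. H3-3B, a gene for H3.3, rose by 1.01 (adjusted p = 5.03e-10 by edgeR), and H2AZ2 and MACROH2A2 fell by 0.75 and 0.95 (adjusted p = 2.74e-08 and 4.34e-08 by edgeR).

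Taken as a sum, other RNAs without a poly(A) tail did not follow the histone mRNAs. The 27 such RNAs in the table, among them the signal recognition particle RNAs RN7SL1 and RN7SL2 and the transcription regulator RN7SK, summed to 5885, 5712 and 9852 CPM in control and to 11639, 13182 and 9102 CPM in CoCl2 libraries. Estrogen libraries held 10230, 12843 and 12772 CPM and CoCl2+estrogen libraries 10791, 12193 and 9934 CPM. Control C, highest for the histones, was also highest among the control libraries here, and control A and B lay below all others. Much of the difference in the sum came from RN7SL1 and RN7SL2. RN7SL2 was at 1398, 1607 and 2523 CPM in control and 4502, 4665 and 3243 in CoCl2 libraries. RN7SK differed less, at 1930, 1987 and 2511 CPM in control and 2215, 3239 and 2482 in CoCl2 libraries. RN7SL1 and RN7SL2 were called higher in CoCl2 than in control cells by 1.23 and 1.18 (adjusted p = 0.0365 and 0.0147 by edgeR), calls that both genes lost without control A (1.03 and 1.01) or control B and RN7SL1 also without CoCl2 A (1.21). Of the list, 9 of 21 tested RNAs were called higher and 1 lower with estradiol, beside 34.7% and 34.2% of all tested genes. The part of library composition in the histone values was not tested. The hepatocyte markers moved with the histones against control, all 10 called lower with estradiol, their sum at 53.9% of the control mean, and in CoCl2+estrogen against estrogen cells 4 of the 10 were called higher and 1 lower. Their part in the histone values was not tested.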

How the data were processed

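RNA-Seq of 12 HepG2 libraries, 3 per group, was used, and the mouse liver libraries of the series were not used here. The authors deposited estimated counts per gene and library, made in Partek Flow on RefSeq transcripts from stranded paired-end reads of ribosome-depleted total RNA, and the submitters' processing notes name Bowtie2 2.2.5, STAR 2.7.8a and the builds hg38 and mm10. These deposited estimated counts are not scaled, and 33 of the 60 members (0 H1, 11 H2A, 14 H2B, 4 H3, 4 H4) held values that were not whole within 0.005, 39.7% of member values against 17.9% of all. Among genes reported singly, such values stood in 12 libraries for H2AC14, H2AC20, H2BC4, H3C4 and H4C12 and in 11 for H2BC5 and H2BC17. They stood in 10 libraries for H2BC15, 8 for H2BC13 and 5 for H2BC7. The build used for the HepG2 libraries is not given in the sources used here, and near-identical histone copies can share reads.

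After rounding, the values went into edgeR 4.0.16 under R 4.3.3 (TMM scaling, quasi-likelihood test, limma 3.58.1), keeping each gene that exceeded 5 counts in any library of the fit. Each comparison was fitted on its 6 libraries, without a block, and the interaction on all 12. Intervals are 95% intervals from the fit and cover the spread between libraries only. Functions were tested on simulated data. DESeq2 1.42.0 (the study's tool), other scalings and filters, all 12 libraries in 1 fit, the replicate letter as a block, summed families and leaving out each library were alternatives. The members and lists were chosen with earlier results of these data known. Genes named are the 3 members with the most reads per family, up to 3 with the smallest adjusted p per direction and comparison, those called against their family's median, SLBP, NPAT, and up to 5 per list. Others named in the text, such as H1-3, H2BC14, H2BC15, H4C11, H4-16, CCNE1 and E2F8, were chosen after their values were seen. Leaving out H1-10, summing near-identical copies, and counting only members above 5 counts in both groups were added after seeing the data. Human sequences were not used here. Some genes that the naming rule picks are not reported here.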

Additional observations from a re-analysis of the deposited data

Results flagged for a closer look

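The effect of CoCl2 differed with and without estradiol for 28 members, as tested by the interaction over 12 libraries. Each had a more negative CoCl2 effect in the presence of estradiol. Among the genes of the naming rule the interaction, on the log2 scale, was -1.59 for H3C3, -1.48 for H3C10, -1.29 for H4C12, -1.21 for H1-5, -1.11 for H3C2, -1.10 for H3C4, -1.06 for H2BC17 and -1.03 for H4C2. It was -0.95 for H3C6, -0.90 for H2AC14, -0.83 for H4C3, -0.82 for H1-2 and -0.74 for H2AC6. H4C12 shares reads with H4C11, and the interaction of their summed counts was -1.20. The calls of H2AC6, H2AC14, H4C3 and H4C12 were each lost when any of several single libraries was left out, and that of H4C2 without CoCl2+estrogen C.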

How the results depend on the processing

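Direction and call held for most values, but some moved. Against control, CoCl2 called 1 member lower (H1-3) under DESeq2, with no filter on low counts, with all 12 libraries in 1 fit and with the replicate block, and between 0 and 1 higher when single libraries were left out (H2BC15 without control replicate C). With counts summed per family, 0 families were called higher in any comparison, 4 of 5 lower with estradiol and 5 of 5 lower with both agents against control, CoCl2 and estrogen cells, 5 of 5 in the interaction, and the medians of the family values were -1.66 against control and -1.73 against CoCl2. Members called higher with both agents against control were 1 under filterByExpr, 1 to 2 when single libraries were left out, 1 without H1-10 and 1 among members above 5 counts in both groups, and against CoCl2 they were likewise 1, 1 to 2, 1 and 1. Leaving out single libraries gave medians of -2.23 to -1.96 for both agents against CoCl2 and 17 to 41 called interactions. The summed histone CPM per library, estrogen, was 2680 with library totals alone, 2431 without H1-2 and 2553 without H1-10. Signs turned for H2AC6 with estradiol under library totals alone (-0.032). Leaving out single libraries turned signs for H1-2 with estradiol (-0.24 to 0.040, positive without control replicate C), for H4C3 with both agents against control (-0.29 to 0.12, positive without control replicate C) and against CoCl2 (-0.22 to 0.018, positive without CoCl2 replicate A), and for the log2 fold change of H1-6, interaction (-3.33 to 1.00, positive without CoCl2 replicate B). For summed near-identical copies, CoCl2 against control, which called none, the values were -0.17 to 0.18 for H2AC18+H2AC19, -0.20 to 0.16 for H3C14+H3C15, -0.15 to 0.39 for H4C14+H4C15 and -0.041 to 0.38 for H4C11+H4C12. The cause was not tested. Library totals alone moved the median of all genes by -0.13 with estradiol.

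The letters A, B and C were not used as pairs, because the deviations of only 5 of 18 same-letter pairs correlated above 0.1 (range -0.34 to 0.33). Of these, 2 lay in CoCl2 against control and 2 in CoCl2+estrogen against estrogen, so the check does not exclude pairing. For CoCl2+estrogen against estrogen the replicate block called 1895 of all genes higher and 1896 lower, and the fit without it 1297 and 1409. With the replicate block, 55 members were called with estradiol, 56 with both agents against control, 55 against CoCl2, 48 against estrogen and 28 in the interaction. At most 4 of 6 libraries of a comparison correlated best with their own letter. Depth limits H1-1, H1-6, H2BC6, H3C1 and H3C12, whose counts were 26 or fewer in every library.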

Other observations

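A few histone genes of the clusters are known to give polyadenylated mRNA as well, and 6 such members, H1-2, H2AC6, H2BC4, H2BC5, H2BC12 and H2BC21, were looked at together. They were chosen after their values were seen, so no test was made. With estradiol their log2 changes ran from -0.79 to 0.10 with a median of -0.44. The other 54 members ran from -4.60 to 4.63 with a median of -1.26, so the 6 lie within the range of the others. Members outside the 6 also fell little, H4-16 by 0.16 and H2AC20 by 0.25 among them. With both agents against control all 6 were called lower, with changes of -1.11 to -0.58 and a median of -0.94, beside a median of -2.18 for the others. Of the other 54 members 48 were called lower too, and 33.2% of all tested genes. Between CoCl2+estrogen and estrogen cells the medians were -0.44 for the 6 and -0.80 for the other 50 tested.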
